A study of Mus musculus with 6 samples.

Results

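The 34 genes described here act in DNA repair and the DNA damage checkpoint alongside Brca1: genes of homologous recombination, the break-sensing complex of Mre11a, Nbn and Rad50, genes of the Fanconi anaemia pathway, checkpoint kinases and their mediators, end joining, mismatch repair and Parp1. They were chosen by name, and each was read from the probe set that carries its symbol alone and has the highest mean signal. Of the 34 genes, 33 had such a probe set (Xrcc2 had none), out of 18193 genes with one on the array. Of the 33, 28 were bright enough to be tested, among 11571 genes tested in all. Rad51c, Rad54l, Rad54b, Fancm and Blm had a mean below the limit, which corresponds to a signal of about 158, and their signals are given without a test.

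The study profiled whole mammary glands of 6 female mice on a mixed 129/FVB/Black Swiss background, 1 mouse per array, as 3 pairs that each hold a Brca1 mutant beside a control. The pregnant pair was taken on day 16.5 at 5 months of age. Its mutant was Brca1 co/co with MMTV-Cre, and its control was Brca1 +/co with MMTV-Cre. Virgin glands came from mice aged 6 months, and lactating glands from mice aged 2 months on lactation day 1. In both pairs the mutant was Brca1 D11/D11;p53+/- and the control was labelled Brca1 D+/+;p53+/-. The p53+/- state is therefore common to mutants and controls of the virgin and lactating pairs, and is not given for the pregnant pair, whose control carries 1 conditional allele and the same Cre. MMTV-Cre acts from a mammary tumour virus promoter that is active mostly in epithelium, so the other cells of that gland can keep Brca1, whereas the D11 genotype is carried in every cell. The series' design text gives the D11/D11;p53+/- genotype for all 3 pairs, and the sample labels were followed here. Stage, age, type of allele and, for the lactating pair, the array date in the titles change together and cannot be told apart.

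Cells repair a double-strand break either by copying the intact sister chromatid (homologous recombination) or by joining the ends directly. In the first route the Mre11a, Rad50 and Nbn complex senses and trims the break, and Brca1 works with recombination genes such as Rad51b, Rad51d and Xrcc3 in the steps that follow. In the second, Xrcc5 and Xrcc6 (the Ku proteins), Prkdc and Lig4 hold and seal the ends. The kinases Atm and Atr signal damage through Chek2 and Chek1 to halt the cell cycle, and many of these genes are known to be transcribed most in dividing cells, which the mammary epithelium holds in numbers that change over the reproductive cycle.

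Values are MAS5 signals, an intensity per probe set on a linear scale, already scaled by the authors to a common trimmed mean of 500. The lactating arrays differed from the others at the dark end. Their median signals were 231 (control) and 211 (mutant) against 119.6 to 157 in the other 4 arrays, and the 20 probe sets of Y-linked genes, which should be dark in females, had medians of 98.7 and 75.4 against 21.1 to 29.1. The brightest Y-linked probe set reached 353 (mutant) and 484 (control) in lactation, and 105 to 196 elsewhere. All 8 milk protein and secretory genes checked had a mean above the limit, with Csn2, a casein, at 30621 to 44423 in all 6 arrays, virgin glands included, while Lalba, needed for lactose, was at 61.5 in the control and 27.9 in the mutant virgin gland, and 43159 and 58796 in the lactating glands. The luminal keratins Krt8 and Krt18 were at 6146 to 15971 and 6790 to 11500.0 in these arrays. Of the 33 genes, 8 were above the highest Y-linked probe set in all 6 arrays, 23 in some arrays and 2 (Rad51c and Fancm) in no array. In both lactating arrays together, 10 were above it. Signals of different probe sets are not compared as amounts of RNA. In whole glands, fewer cells of a type and less RNA per cell cannot be told apart.

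**Figure D1:**
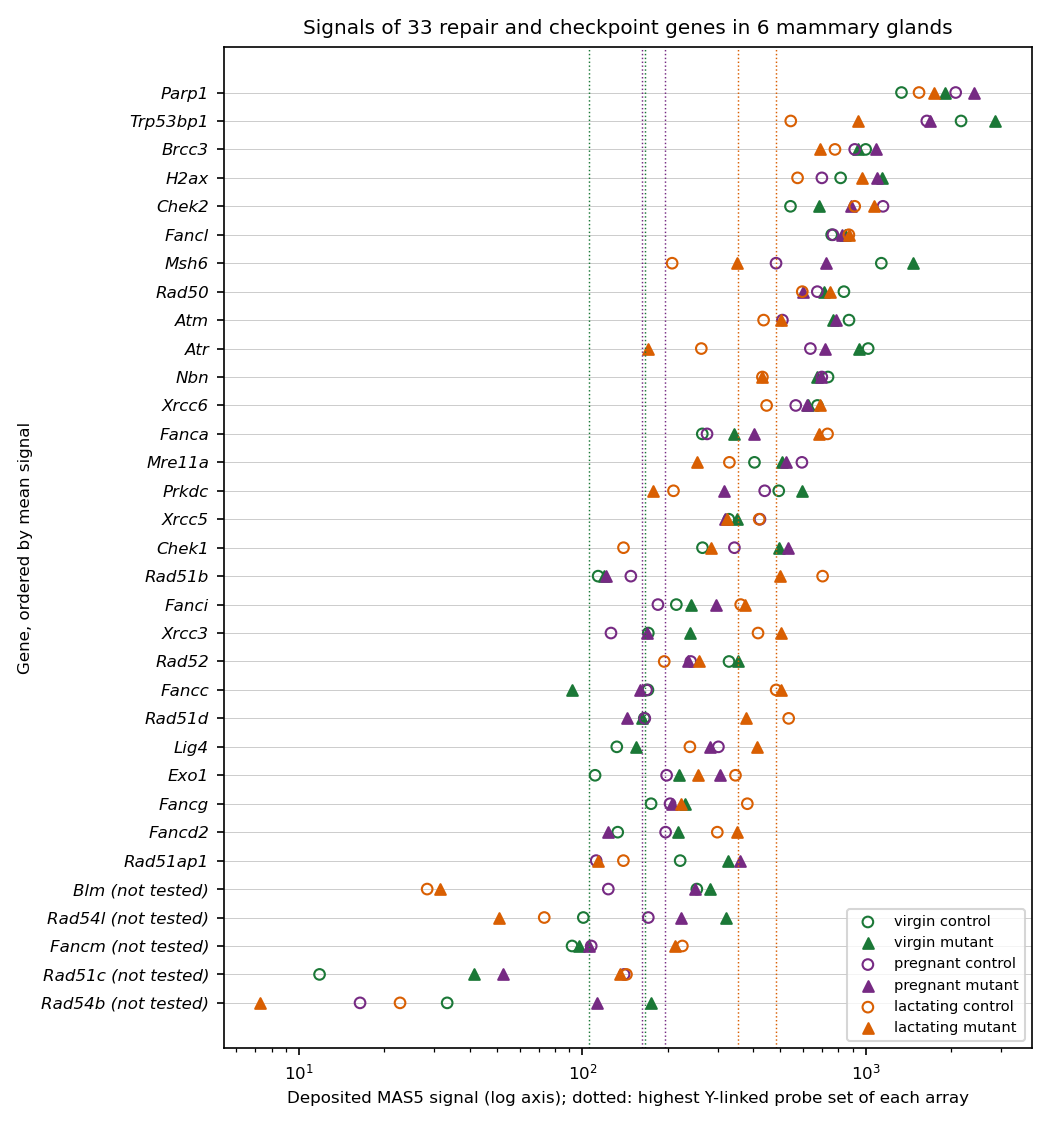
MAS5 signal (log axis) of each of the 33 genes in each of the 6 arrays, with controls as open circles and mutants as filled triangles in the colour of their stage. Dotted lines mark the highest Y-linked probe set of each array. The lactating symbols of Msh6, Atr, Trp53bp1 and Prkdc lie to the left of the other 4, and those of Rad51b, Rad51d, Xrcc3, Fancc and Fanca lie to the right.

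The first question was whether the loss of full-length Brca1 goes with a change in its fellow repair genes. No member of the set passed the test: 0 of 28 had an adjusted p under 0.05 in the limma model with the stage as a block, where the lowest adjusted p among them was 0.945. Over all 11571 genes the share called was 0%, the same as in the set. Of the 28 genes, 17 had a positive and 11 a negative log2 ratio of mutant to control, with a median of 0.11 against 0.03 for all tested genes. In 7 of 28 genes the mutant was higher in all 3 pairs (Chek1, H2ax, Msh6, Trp53bp1, Xrcc3, Parp1 and Fanci), beside 15.0% of all genes, and in 2 of 28 (Rad51d and Nbn) it was lower in all 3, beside 10.6%. Before adjustment, 3 of 28 had a limma p under 0.05 with a higher mutant, where 2.79% of all genes did, and 0 of 28 with a lower mutant, where 1.87% did. Those 3 were H2ax, Chek1 and Msh6. With 1 mouse per array, no stage and genotype has a second mouse. These p-values rest on how far the 3 pairs disagree, with a variance drawn towards that of all genes. They do not measure the spread between mice of the same stage and genotype.

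H2ax (gene at chr9:44334715-44336077, GRCm38.p6) encodes the histone variant H2A.X that is phosphorylated around breaks. Its signal was 815 in the control and 1138 in the mutant virgin gland, 700.2 in the control and 1099 in the mutant pregnant gland and 575 in the control and 971 in the mutant lactating gland. The 3 mutant values lay above all 3 control values, and the share of all genes with this pattern is not given here. The log2 ratio was 0.59 ± 0.16 (SE, n = 3 pairs, rank 29 of 11571 genes by limma's moderated statistic; adjusted p = 0.945). Chek1 (chr9:36708482-36726658), the checkpoint kinase downstream of Atr, was 265 in the control and 494 in the mutant virgin gland, 344 in the control and 531 in the mutant pregnant gland and 139.6 in the control and 284 in the mutant lactating gland. The mutant was higher in each pair, by 0.78, 0.56 and 0.81 on the log2 scale in the virgin, pregnant and lactating pairs, but the lactating mutant lay below the pregnant control. Its log2 ratio was 0.72 ± 0.20 (rank 33 of 11571 genes by limma's moderated statistic; adjusted p = 0.945). A second Chek1 probe set above the limit gave 0.64.

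Msh6 (chr17:87975050-87990892) encodes a mismatch repair protein that recognises mispaired bases. Its signal was 1135 in the control and 1474 in the mutant virgin gland, 482 in the control and 725 in the mutant pregnant gland and 207 in the control and 351 in the mutant lactating gland. The mutant exceeded the control in each pair, while the spread between stages was larger than that between genotypes. Its log2 ratio was 0.51 ± 0.17 (rank 91 of 11571 genes by limma's moderated statistic; adjusted p = 0.945). Trp53bp1 (chr2:121194835-121296354), a chromatin reader that favours end joining, had a log2 ratio of 0.39 ± 0.18 (adjusted p = 0.945), with pair ratios of 0.39 virgin, 0.04 pregnant and 0.73 lactating. Its other probe sets above the limit gave 0.12, 0.18 and -0.17, and each was lower in the mutant of the lactating pair. Parp1 (chr1:180568891-180600999), which marks DNA breaks with poly-ADP-ribose, was 1338 in the control and 1899.7 in the mutant virgin gland, 2078 in the control and 2404 in the mutant pregnant gland and 1543 in the control and 1742 in the mutant lactating gland. The mutant was higher in each pair, and the log2 ratio was 0.29 ± 0.16 (adjusted p = 0.945). The other Parp1 probe sets above the limit gave 0.19, 0.18 and 0.70, but 1 of them was lower in the virgin mutant (-0.15). Of the genes lower in every pair, Rad51d had a log2 ratio of -0.20 ± 0.23 and Nbn of -0.05 ± 0.17, with an adjusted p of 0.949 and 0.987. Another Rad51d probe set above the limit went the other way, at 0.22, and was higher in the mutant in every pair.

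**Figure D2:**
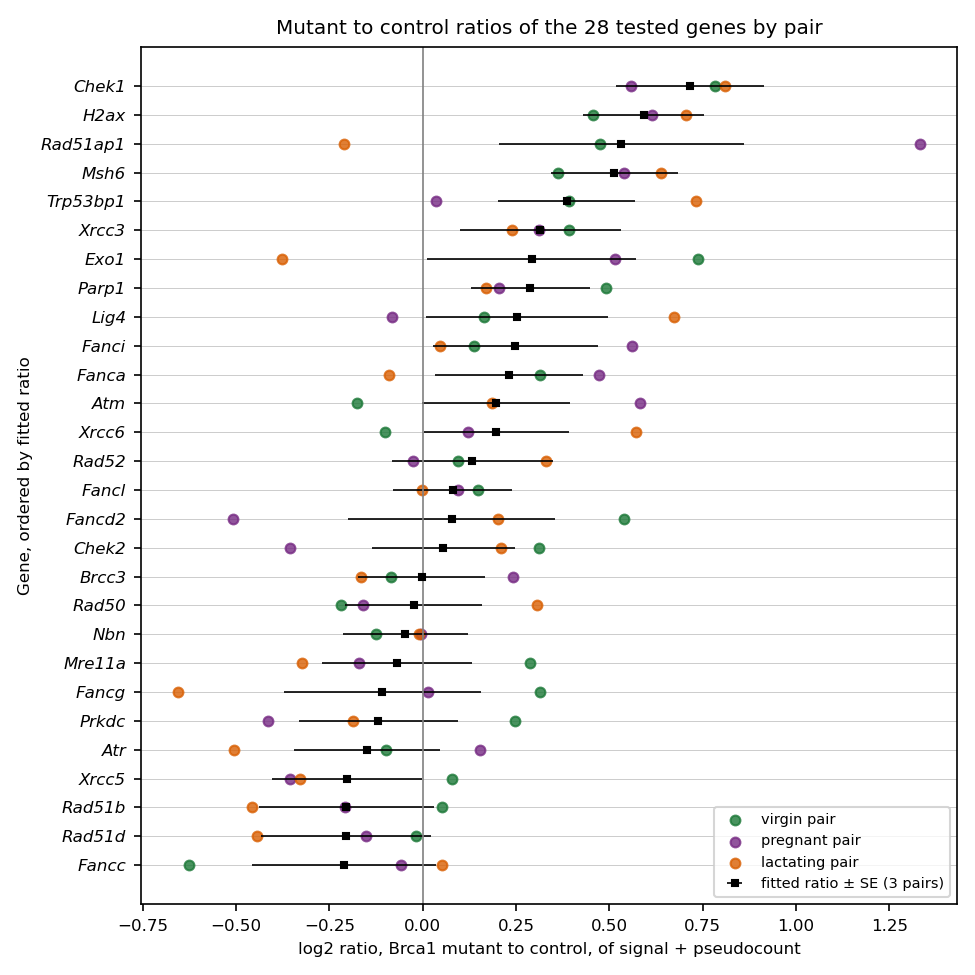
Mutant to control log2 ratio of log2(signal + 52.1) for the 28 tested genes, with 1 coloured point per pair and a black square for the fitted ratio with its standard error. Chek1, H2ax and Msh6 have all 3 points above 0.35, most genes have points on both sides of 0, and the pregnant pair of Rad51ap1 stands at 1.33.

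Within single pairs, where 1 array per genotype allows no test, changes of 2-fold were rare. Among the 28 genes 1 passed it, Rad51ap1, a helper of recombination, which was 112 in the control and 360.5 in the mutant pregnant gland, a log2 ratio of 1.33. It was 221 in the control and 328 in the mutant virgin gland (0.47) and 139.5 in the control and 114 in the mutant lactating gland (-0.21). At this probe set the pairs therefore did not share a direction. A second Rad51ap1 probe set above the limit was higher in the mutant in every pair, by 1.08 virgin, 0.74 pregnant and 0.41 lactating. The share of all genes at least 2-fold higher in the mutant was 1.44% (virgin), 1.10% (pregnant) and 3.64% (lactating), and the share at least 2-fold lower was 1.24%, 0.907% and 2.72%. Rad54l and Rad54b, motor proteins that remodel DNA during recombination, had means below the limit. Rad54l was 101 in the control and 322 in the mutant virgin gland, 171 in the control and 223 in the mutant pregnant gland and 73.3 in the control and 50.7 in the mutant lactating gland, with a log2 ratio of 1.29 in the virgin pair. Rad54b was 33.3 in the control and 175 in the mutant virgin gland, 16.4 in the control and 112 in the mutant pregnant gland and 22.7 in the control and 7.3 in the mutant lactating gland, with ratios of 1.41 virgin and 1.26 pregnant. Of these Rad54b values only that of the virgin mutant exceeded its array's highest Y-linked probe set.

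The whole set is given here by pair, with no test of the difference between pairs. In the virgin pair 20 of 28 genes were higher in the mutant with a median log2 ratio of 0.21, in the pregnant pair 16 of 28 with 0.07, and in the lactating pair 15 of 28 with 0.05. The medians of all tested genes were 0.02, 0.02 and 0.04. Genes of DNA replication had larger ratios. Fitted ratios were positive for 17 of 17 S phase genes, with a median of 0.65 and 0 of 17 called after adjustment, and their pair medians were 0.71 virgin, 0.84 pregnant and 0.22 lactating. Mitosis genes had medians of 1.11, 0.08 and -0.27 in the same order. All 5 tested B cell markers and 4 of 6 T cell markers also had a positive fitted ratio, and 5 of 5 macrophage markers a negative one. Skeletal muscle markers were negative in 6 of 6, with a median of -0.48 and a median of -1.45 in the virgin pair, where 5 of 6 were past 2-fold lower in the mutant. Luminal markers were higher in the mutant in 5 of 5 in the lactating pair, with a median of 0.87. None of these markers was called. RNA quality differed within the virgin pair, where the ratio of 3' to 5' Gapdh signal was 3.50 in the control and 1.52 in the mutant, against 0.73 to 1.20 in the other 4 arrays. The part of these lists and of RNA quality in the ratios of the repair genes was not tested. Outside the set, 52 of 71 tested repair and checkpoint genes had a positive ratio with a median of 0.13 and 0 called, and 18 of 71 were higher in all 3 pairs. Brca1 itself was 137 in the control and 486 in the mutant virgin gland, 159 in the control and 288 in the mutant pregnant gland and 238 in the control and 157 in the mutant lactating gland, with a log2 ratio of 0.58 ± 0.37 (adjusted p = 0.945), and since the position of its probes relative to the deletion was not used here, it does not check the labels.

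**Figure D3:**
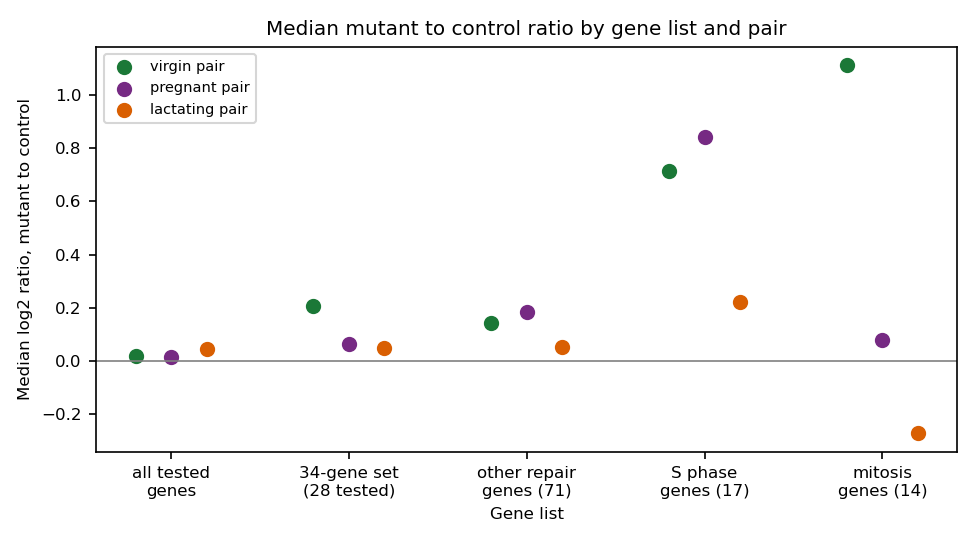
Median mutant to control log2 ratio in each pair (coloured points) for all 11571 tested genes, the 28 tested genes of the set, 71 other repair genes, 17 S phase genes and 14 mitosis genes. The set lies at 0.21, 0.07 and 0.05, below the S phase medians of 0.71, 0.84 and 0.22 in every pair.

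More genes of the set passed the test between stages than between genotypes. Between lactating and virgin glands 14 of the 28 genes passed the test, 7 higher and 7 lower in lactation. Higher were the recombination genes Rad51b, Rad51d and Xrcc3, the Fanconi anaemia genes Fanca and Fancc, Lig4 and Chek2. Of these, Rad51b and Fancc were bright enough to be tested only through the lactating arrays. The probe set used for Rad51d had the highest mean of its gene only through the same arrays. Lower were Msh6, the kinases Atr, Atm, Prkdc and Chek1, Trp53bp1 and Nbn. Over all tested genes 24.2% were called higher and 28.5% lower, so 7 of 28 in each direction is close to the background. The median of the set was -0.08, against -0.10 for all genes. Between lactating and pregnant glands 5 of 28 were higher (Rad51b, Rad51d, Xrcc3, Fanca and Fancc) and 6 of 28 lower (Atr, Trp53bp1, Msh6, Chek1, Mre11a and Nbn), beside 15.5% and 17.1% of all genes. These comparisons share the lactating arrays and are not independent. Between pregnant and virgin glands 0 of 28 were higher and 1 of 28, Msh6, was lower, beside 6.56% and 8.02%.

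The split between higher and lower genes depended on the scaling of the arrays. When each array was centred on its median, the median of all genes between lactating and virgin glands moved from -0.10 to -0.69, and the share of called genes that were higher went from 46.0% to 19.2%. Between lactating and pregnant glands these became -0.44 in place of -0.03, and 17.6% in place of 47.4%. For pregnant against virgin glands the median moved from -0.06 to -0.24 and the share from 45.0% to 27.5%. The set then had 2 genes higher and 14 lower between lactating and virgin glands, and 4 higher and 10 lower between lactating and pregnant glands. Under the deposited scaling, quantile normalization and median centring alike, Rad51b and Fancc were called higher and all 7 lower genes were called lower between lactating and virgin glands. Between lactating and pregnant glands 4 higher genes (all but Fanca) and all 6 lower genes were. Since Rad51b and Fancc passed the limit only through the lactating arrays, their calls are a description alone under any scaling. The same holds for Rad51d, whose probe set was chosen through those arrays. For the 20 Y-linked probe sets the median log2 ratio between lactating and virgin glands was 0.84, which is the size that dark probe sets reached here.

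**Figure D4:**
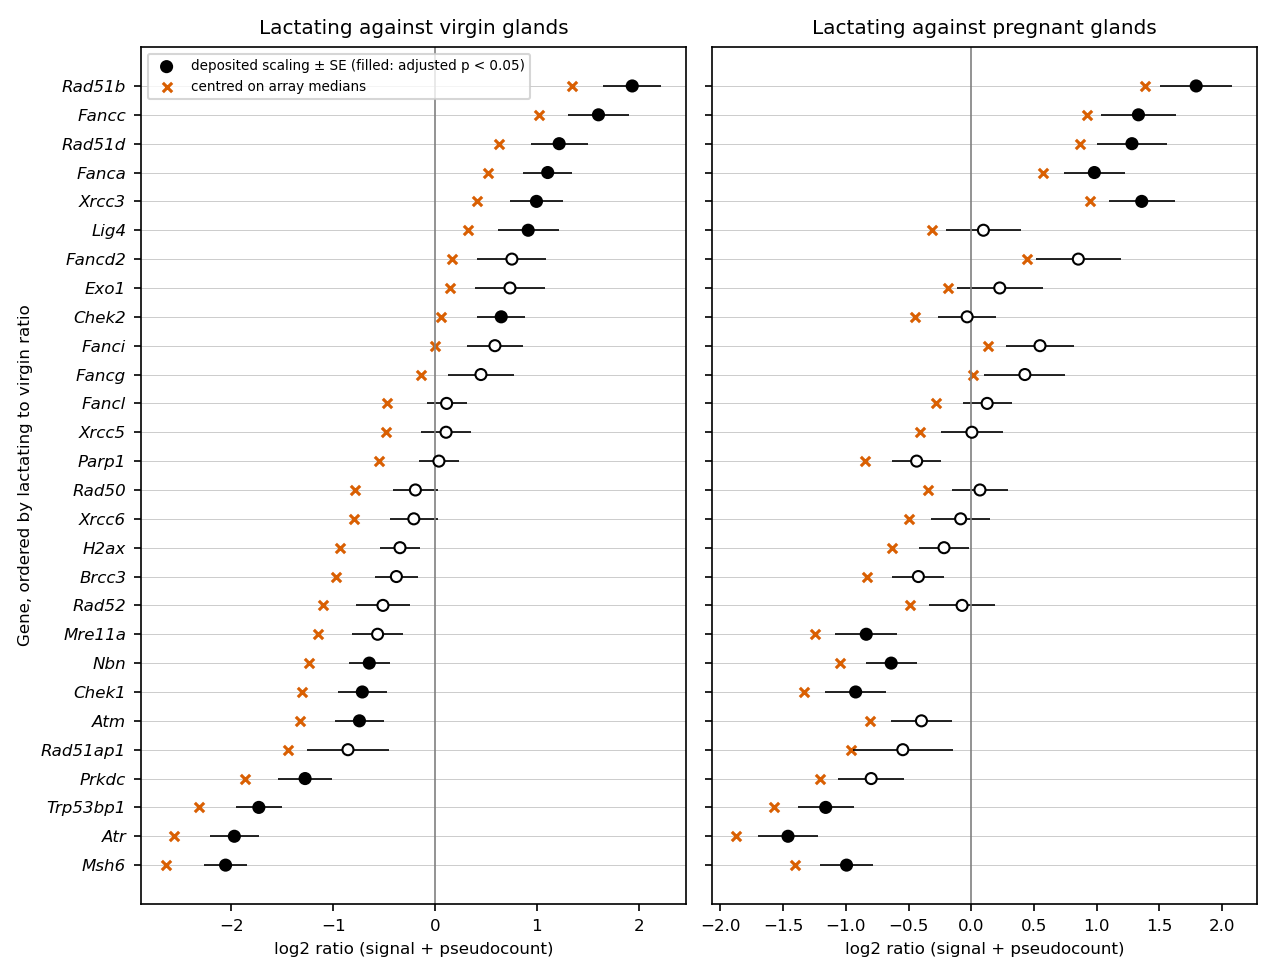
Log2 ratio with standard error of the 28 genes between lactating and virgin glands (left) and lactating and pregnant glands (right), 2 arrays per stage. Circles are values at the deposited scaling, filled where the adjusted p is under 0.05, and crosses are values after centring each array on its median, which shifts every gene down. Rad51b and Fancc stay right of 0.9 and Msh6, Atr and Trp53bp1 stay left of -0.9 in both panels under both scalings.

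Msh6 had the lowest ratio of the set between lactating and virgin glands. As given above, its 6 signals fell into 3 separate ranges: virgin glands highest, pregnant glands between and lactating glands lowest, with no overlap. The share of all genes with ranges this separate is not given here, which also holds for the genes that follow. The log2 ratio of lactating to virgin glands was -2.06 ± 0.21 (SE, n = 2 arrays per stage; adjusted p = 0.000354), with -2.19 in the controls and -1.92 in the mutants. The log2 ratio of pregnant to virgin glands was -1.06 ± 0.21 (adjusted p = 0.0177), and that of lactating to pregnant glands was -0.99 ± 0.21 (adjusted p = 0.0127; 0.0712 without the pregnant control and 0.0863 without the pregnant mutant). Neither lactating signal of Msh6 exceeded its array's highest Y-linked probe set, so the sizes of these drops and the place of the lactating glands below the pregnant ones are limited by the dark level. With lactating signals raised to the brightest of the 20 Y-linked probe sets, the log2 ratio was -1.53 against virgin and -0.47 against pregnant glands. The call between pregnant and virgin glands was lost when any 1 of those 4 arrays was left out: the adjusted p was 0.132 without the pregnant control, 0.0864 without the pregnant mutant, 0.0644 without the virgin mutant and 0.176 without the virgin control.

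Atr (chr9:95857597-95953217), the kinase that answers stalled replication, was 1020.1 in the control and 949 in the mutant virgin gland, 638 in the control and 715 in the mutant pregnant gland and 263 in the control and 169.8 in the mutant lactating gland. Its values fell into the same order of stages without overlap, but both lactating signals also lay under the arrays' highest Y-linked probe set. The log2 ratio of lactating to virgin glands was -1.97 ± 0.24 (adjusted p = 0.000675) and that of lactating to pregnant glands -1.46 ± 0.24 (adjusted p = 0.00584), the latter at 0.0509 without the pregnant mutant. Raised to the brightest Y-linked probe set as above, these were -1.15 and -0.64. Its 2 other probe sets above the limit each gave -0.51 between lactating and virgin glands, but each through 1 genotype. In the first the control went from 183.5 in the virgin to 48.7 in the lactating gland, and the mutant from 209.6 to 248.5. In the second the mutant went from 232.8 to 90.8, and the control from 178.1 to 172.7. Trp53bp1 was 2171 in the control and 2866 in the mutant virgin gland, 1643 in the control and 1685 in the mutant pregnant gland and 544 in the control and 937 in the mutant lactating gland, again in 3 separate ranges. Its log2 ratio was -1.73 ± 0.22 against virgin glands (adjusted p = 0.000851) and -1.16 ± 0.22 against pregnant glands (adjusted p = 0.00979), the latter at 0.0925 without the pregnant control. Its probe sets disagreed: the second brightest gave -2.99 between lactating and virgin glands and the 2 dimmer ones above the limit 0.29 and 1.19. Those below the limit, near the dark level, gave 2.05 and 1.22. The mean over all 6 probe sets, including those below the limit, had no drop (a log2 ratio of 0.01, adjusted p = 0.987).

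Chek1 was lower in lactating than in pregnant glands, -0.92 ± 0.24 (adjusted p = 0.0262), and than in virgin glands, -0.71 ± 0.24 (adjusted p = 0.0403). Both lactating values were below both pregnant values, but the lactating mutant was above the virgin control, and the call against virgin glands was lost on leaving out any 1 of the 6 arrays, with an adjusted p of 0.066 to 0.201. The call against pregnant glands was lost without either pregnant array or the lactating control, at 0.0786 to 0.186. Its lactating signals too lay under the highest Y-linked probe set, and raised to it the log2 ratios were -0.04 and 0.16, so these data give no size for the drop of Chek1. Atm (chr9:53437122-53536828), the kinase that answers double-strand breaks, was 873 in the control and 767 in the mutant virgin gland, 508 in the control and 786 in the mutant pregnant gland and 436 in the control and 503 in the mutant lactating gland. Of the lactating signals, that of the control lay under its array's highest Y-linked probe set. Both lactating values lay below the other 4, with a log2 ratio against virgin glands of -0.74 ± 0.24 (adjusted p = 0.0353), which became 0.304 without the virgin control, 0.0818 without the lactating mutant and 0.0805 without the lactating control. Its second probe set went the other way, at 1.06. Chek2 (chr5:110839800-110874140), the kinase activated by Atm, was 542 in the control and 686 in the mutant virgin gland, 1151 in the control and 888 in the mutant pregnant gland and 914 in the control and 1066 in the mutant lactating gland. Here the virgin glands were the lowest, and lactating glands were higher by 0.65 ± 0.23 (adjusted p = 0.048). The call was lost without any 1 of the 4 arrays compared, at 0.0613 to 0.307, and after median centring, at 0.845. H2ax was not called between stages, with a log2 ratio of -0.34 ± 0.20 between lactating and virgin glands (adjusted p = 0.18).

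The promoters shown are those of Msh6, Atr and Trp53bp1, with the 3 lowest lactating to virgin ratios of the set, of Rad51b and Fancc, with the 2 highest, of Chek1, and of Xrcc3, which was picked for its copies of CCAAT after they had been counted. Repair genes active in dividing cells are known to carry sites for E2F and NF-Y. Each sequence is the 250 bases before the transcription start in the RefSeq table of GRCm38.p6, on the strand of the gene, with capitals marking CCAAT or its reverse complement ATTGG, the core of the NF-Y motif. The starts used for Trp53bp1 and Fancc lie well inside the annotated spans of these genes, and that of Xrcc3 lies just inside its span.
Msh6 promoter, chr17:87974800-87975049, plus strand: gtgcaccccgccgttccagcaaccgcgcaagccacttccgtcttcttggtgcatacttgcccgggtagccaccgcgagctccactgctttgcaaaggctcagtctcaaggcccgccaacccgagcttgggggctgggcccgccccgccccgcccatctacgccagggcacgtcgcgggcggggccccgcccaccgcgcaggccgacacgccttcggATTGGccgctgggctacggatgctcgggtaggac
Atr promoter, chr9:95857347-95857596, plus strand: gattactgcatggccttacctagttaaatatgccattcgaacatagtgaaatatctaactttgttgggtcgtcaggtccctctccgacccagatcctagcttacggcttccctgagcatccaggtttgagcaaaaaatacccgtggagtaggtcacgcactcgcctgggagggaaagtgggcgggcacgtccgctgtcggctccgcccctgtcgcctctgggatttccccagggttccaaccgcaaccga
Trp53bp1 promoter, chr2:121271408-121271657, minus strand: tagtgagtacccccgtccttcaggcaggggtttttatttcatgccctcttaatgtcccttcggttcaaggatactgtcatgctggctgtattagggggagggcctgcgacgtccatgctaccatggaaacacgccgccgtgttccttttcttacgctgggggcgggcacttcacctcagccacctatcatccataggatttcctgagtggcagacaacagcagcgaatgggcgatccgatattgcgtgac
Rad51b promoter, chr12:79297032-79297281, plus strand: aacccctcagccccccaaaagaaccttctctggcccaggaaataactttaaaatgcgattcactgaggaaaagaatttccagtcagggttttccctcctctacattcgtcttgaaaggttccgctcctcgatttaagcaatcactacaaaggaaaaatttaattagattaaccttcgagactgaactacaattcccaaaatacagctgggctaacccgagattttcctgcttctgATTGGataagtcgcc
Fancc promoter, chr13:63431746-63431995, minus strand: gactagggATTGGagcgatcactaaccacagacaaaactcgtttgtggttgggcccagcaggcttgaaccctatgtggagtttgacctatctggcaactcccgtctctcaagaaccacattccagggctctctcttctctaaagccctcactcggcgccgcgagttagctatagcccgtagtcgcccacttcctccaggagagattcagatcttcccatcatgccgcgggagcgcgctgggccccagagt
Chek1 promoter, chr9:36726659-36726908, minus strand: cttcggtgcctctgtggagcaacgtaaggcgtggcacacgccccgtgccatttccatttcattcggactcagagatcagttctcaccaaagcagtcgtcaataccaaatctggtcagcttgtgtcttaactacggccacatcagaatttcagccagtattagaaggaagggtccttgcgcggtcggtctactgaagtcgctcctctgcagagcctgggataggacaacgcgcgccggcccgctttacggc
Xrcc3 promoter, chr12:111813880-111814129, minus strand: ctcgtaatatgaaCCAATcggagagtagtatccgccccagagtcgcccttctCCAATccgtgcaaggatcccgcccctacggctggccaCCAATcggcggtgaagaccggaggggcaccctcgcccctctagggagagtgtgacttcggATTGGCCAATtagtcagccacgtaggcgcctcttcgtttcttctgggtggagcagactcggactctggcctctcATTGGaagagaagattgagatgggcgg

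Promoter windows of 300 bases (250 before to 50 after the start) were found for 25 of the 33 genes. Rad51d, Rad54b, Nbn, Rad50, Fancd2, Exo1, H2ax and Prkdc were not matched. CCAAT on either strand was present in 15 of 25 windows (60%), against 37.9% of all 27025 promoters in the table. Xrcc3 held 6 copies, and Msh6, Rad51b and Fancc 1 each, at 34, 15 and 242 bases before the start, while the Chek1, Atr and Trp53bp1 windows held none. The E2F letters TTTCGCGC or TTTGGCGC were present in 1 of 25, that of Rad51c, against 0.833% of all promoters, and the CHR letters TTTGAA in 0 of 25, against 18.1%. None of these 3 motifs contains another. These are letter matches, and no binding was measured.

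Of the 5 tested recombination genes, 3 were called higher in lactating than in virgin glands and 3 in lactating than in pregnant glands, where 24.2% and 15.5% of all genes were. As in the groups that follow, a count over so few genes shows nothing particular to the group. Rad51b (chr12:79297282-79848260) was 114 in the control and 119.6 in the mutant virgin gland, 148 in the control and 121 in the mutant pregnant gland and 704 in the control and 499 in the mutant lactating gland. The lactating values were far above the highest of the other 4. Its log2 ratio was 1.94 ± 0.29 against virgin glands (adjusted p = 0.00142) and 1.79 ± 0.29 against pregnant glands (adjusted p = 0.00552), the highest ratios of the set. Rad51b passed the lower limit of 7.72 (mean log2 value) only through these 2 lactating arrays, at 9.34 against 7.40 in virgin and 7.54 in pregnant glands. A gene that enters this way has to be higher in lactation, so its calls describe these arrays and support nothing further. Its other probe set, whose mean was under the limit, was the brighter one in virgin glands, at 185 in the control and 170.5 in the mutant, and gave -1.52 between lactating and virgin glands. Rad51d (chr11:82871960-82890624) was 165 in the control and 162 in the mutant virgin gland, 166 in the control and 144 in the mutant pregnant gland and 535 in the control and 379 in the mutant lactating gland. Again only the lactating values stood apart, and the mean of the other 4 arrays was at the limit, with ratios of 1.22 ± 0.28 (adjusted p = 0.00862) and 1.28 ± 0.28 (adjusted p = 0.0142). The adjusted p was 0.0843 without the virgin control for the former, and 0.0585 to 0.088 without either pregnant array or the lactating control for the latter. A second Rad51d probe set above the limit gave -0.77 and 0.32. In virgin glands it was the brighter one, at 306 in the control and 335 in the mutant. Without the lactating arrays it would also have had the higher mean. The probe set used was thus chosen through the arrays in which it is high, so the Rad51d calls too are a description alone.

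Xrcc3 (chr12:111803192-111813893), the partner of Rad51c, was 171 in the control and 240.5 in the mutant virgin gland, 126 in the control and 169 in the mutant pregnant gland and 417 in the control and 502 in the mutant lactating gland. The lactating control signal lay under its array's highest Y-linked probe set. Both lactating values exceeded all 4 others. Its ratios were 1.00 ± 0.26 against virgin (adjusted p = 0.0154) and 1.36 ± 0.26 against pregnant glands (adjusted p = 0.00981), and the adjusted p ranged over 0.0562 to 0.11 without either virgin array or the lactating control for the first and was 0.0561 and 0.0636 without either pregnant array for the second. Rad52, which helps anneal single strands, ranged from 194 to 355 and was not called in any comparison. Rad51c, at 11.8 to 143, was under the highest Y-linked probe set in every array.

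In the break-sensing complex 2 of 3 genes were called lower in lactating than in pregnant glands, as were 17.1% of all genes. Mre11a (chr9:14784654-14837125), its nuclease, was 405 in the control and 506 in the mutant virgin gland, 595 in the control and 523 in the mutant pregnant gland and 330.2 in the control and 253 in the mutant lactating gland. The lactating values were the lowest, with a ratio of -0.84 ± 0.25 against pregnant glands (adjusted p = 0.0373; 0.203 without the pregnant control, 0.135 without the pregnant mutant and 0.139 without the lactating mutant, and a ratio of -0.39 with its lactating signals, which are under the highest Y-linked probe set, raised to it) and -0.56 ± 0.25 against virgin glands (adjusted p = 0.0905). A second Mre11a probe set gave 0.53 and 1.67. Nbn (chr4:15957587-15992589), the subunit that recruits Atm, was 736 in the control and 670.5 in the mutant virgin gland, 699.9 in the control and 698 in the mutant pregnant gland and 432 in the control and 429 in the mutant lactating gland. Of the lactating signals, that of the control lay under its array's highest Y-linked probe set. The 2 arrays of each stage lay close together and lactating glands were the lowest, with log2 ratios of -0.65 ± 0.20 against virgin and -0.64 ± 0.20 against pregnant glands (adjusted p = 0.0305 and 0.0474), and both calls were lost on leaving out any 1 of the 6 arrays, with an adjusted p of 0.0539 to 0.183 and 0.0723 to 0.237. Rad50, the ATPase of the complex, was at 597 to 838 and not called in any comparison.

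Of the 6 tested Fanconi anaemia genes, which act on crosslinks between the strands, 2 were called higher in lactating glands, beside a background of 24.2% against virgin and 15.5% against pregnant glands. Fanca (chr8:123266294-123318651), a subunit of the core complex, was 265 in the control and 342 in the mutant virgin gland, 275 in the control and 402 in the mutant pregnant gland and 733 in the control and 686 in the mutant lactating gland, with both lactating values above the rest. Its ratios were 1.11 ± 0.24 against virgin (adjusted p = 0.00721) and 0.98 ± 0.24 against pregnant glands (adjusted p = 0.0212). The first was at 0.0563 without the virgin control and the second at 0.0667 to 0.154 without either pregnant array or the lactating control. Fancc (chr13:63301334-63497292), of the same complex, was 170.3 in the control and 91.9 in the mutant virgin gland, 168 in the control and 159.8 in the mutant pregnant gland and 483 in the control and 502 in the mutant lactating gland. Its ratios were 1.61 ± 0.30 (adjusted p = 0.00373) and 1.33 ± 0.30 (adjusted p = 0.0159), at 0.0527 to 0.106 without either pregnant array or the lactating mutant. Like Rad51b, Fancc passed the limit only through the lactating arrays (9.09 against 7.48 in virgin and 7.76 in pregnant glands), so these calls are a description alone. Its lactating control signal of 483 lay just under that array's highest Y-linked probe set. The other 4 tested genes, Fancd2 (123 to 352), Fancg (175 to 382), Fanci (185 to 375) and Fancl (758 to 872), did not pass in any comparison. Fancm (91.9 to 225) was not tested.

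Of the 4 end joining genes, 1 was called higher and 1 lower in lactating than in virgin glands, beside 24.2% and 28.5% of all genes. Prkdc (chr16:15637444-15842239), its DNA-bound kinase, was 493 in the control and 595 in the mutant virgin gland, 439.9 in the control and 317 in the mutant pregnant gland and 209.6 in the control and 178 in the mutant lactating gland, in 3 ranges without overlap from virgin down to lactating glands, the last of them under the arrays' highest Y-linked probe set. The ratio was -1.28 ± 0.26 between lactating and virgin glands (adjusted p = 0.00552; 0.0664 without the virgin mutant, and a ratio of -0.35 with lactating signals raised to that probe set), and -0.80 ± 0.26 between lactating and pregnant glands missed the threshold (adjusted p = 0.052). Lig4 (chr8:9970020-9977680), its ligase, was 132 in the control and 155 in the mutant virgin gland, 302 in the control and 282 in the mutant pregnant gland and 239.5 in the control and 412 in the mutant lactating gland. Here too the lactating control signal lay under its array's highest Y-linked probe set. Virgin glands were the lowest, and lactating glands were higher by 0.92 ± 0.30 (adjusted p = 0.0347). The call was lost without either virgin array or the lactating mutant, at 0.121 to 0.195, and after quantile normalization (0.331) or median centring (0.394). The Ku genes Xrcc5 (319.5 to 423) and Xrcc6 (447 to 689) were not called in any comparison. Parp1 was not called between stages (0.47 ± 0.19 between pregnant and virgin glands, adjusted p = 0.143). Exo1, a nuclease that trims breaks (111 to 347), and Brcc3, a subunit of the Brca1-A complex (689 to 1091), were not called either. Blm, a helicase that dissolves recombination intermediates, was 253 in the control and 281 in the mutant virgin gland, 123 in the control and 251 in the mutant pregnant gland and 28.3 in the control and 31.5 in the mutant lactating gland. Its lactating values were the lowest of the 6.

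Most genes of the set that rose between virgin and lactating glands were dim. Across all tested genes the median lactating to virgin ratio was 0.49 in the dimmest of 10 equal groups by mean signal, 0.28 and 0.08 in the next and between -0.26 and -0.12 in the other 7. Of the 28 genes, 11 lay in the dimmest 2 of these groups. Rad51b, Rad51d, Xrcc3, Fancc and Lig4 had mean signals of 254 to 284, whereas Msh6, Atr, Trp53bp1, Atm and Nbn, which fell, had means of 611 to 1641. Fanca (451) and Chek2 (875) rose at higher signals, and Chek1 (343) and Prkdc (372) fell at lower ones. The part of signal level in these calls was not tested.

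**Figure D5:**
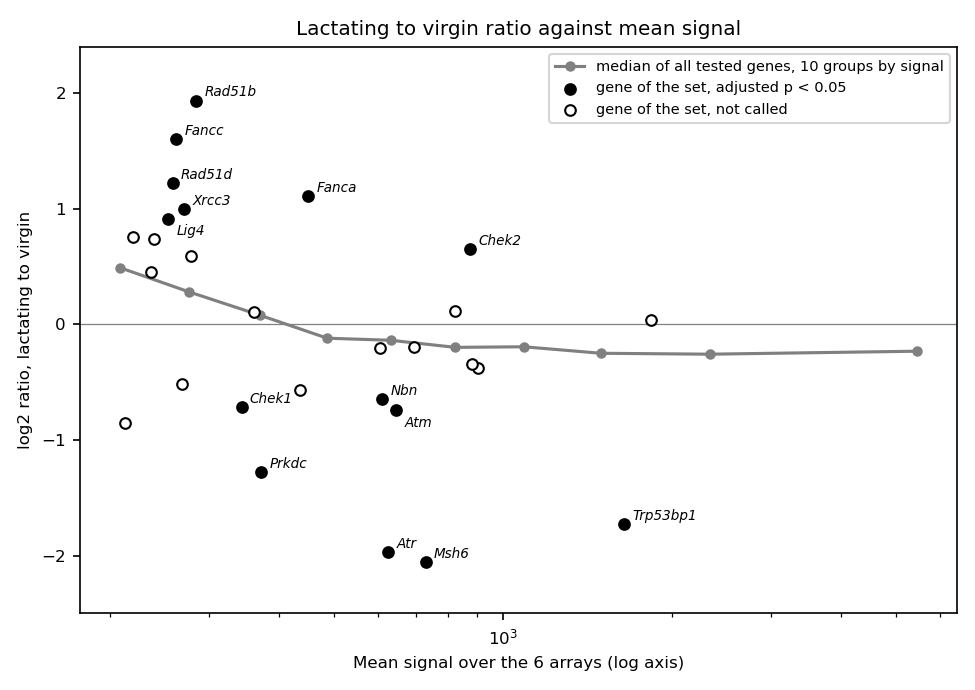
Lactating to virgin log2 ratio of the 28 genes against mean signal over the 6 arrays (log axis), filled where the adjusted p is under 0.05. The grey line joins the medians of all tested genes in 10 equal groups by mean signal and falls from 0.49 to -0.23. Rad51b, Fancc and Fanca lie well above the line at their signal, and Msh6, Atr and Trp53bp1 well below it.

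Other repair and checkpoint genes, 71 tested of 96 listed, had calls in both directions as well. Between lactating and virgin glands 16 were higher and 20 lower, beside 24.2% and 28.5% of all genes. Between lactating and pregnant glands 10 and 9 were, beside 15.5% and 17.1%, and between pregnant and virgin glands 2 and 2, beside 6.56% and 8.02%. Like those of the set, these counts are near or below the background. The smallest p-values among those higher in lactating than in virgin glands belonged to the flap nuclease Fen1 (2.55 ± 0.24, adjusted p = 0.000278), the phosphatase Cdc25a (2.19 ± 0.25, adjusted p = 0.000548) and Fancf of the Fanconi core complex (2.22 ± 0.31, adjusted p = 0.00106). In virgin and pregnant glands Fancf signals were 78.3 to 156.5, all under the limit of about 158. Like Rad51b, it was tested only through the lactating arrays, so its call is a description alone. Among those lower they belonged to Topbp1, which activates Atr (-1.86 ± 0.21, adjusted p = 0.000472), Tipin, a fork protection factor of the same pathway (-2.41 ± 0.29, adjusted p = 0.000617), and the helicase Recql (-1.67 ± 0.28, adjusted p = 0.00243). Both lactating signals of Tipin and Recql, and the lactating control signal of Topbp1, lay under their arrays' highest Y-linked probe set. The sizes of these drops are therefore limited by the dark level. In the other Fanconi anaemia genes 4 of 5 tested, Fancf among them, were called higher in lactating than in virgin glands and 0 lower. In replication protein A and translesion synthesis genes 1 of 9 was higher and 7 lower. The shares of all genes are those given above, and with 5 and 9 genes these counts are descriptions. In the pregnant glands Faap24 and Cdc25a were higher than in virgin glands (0.91 ± 0.24 and 0.93 ± 0.25) and the polymerases Poli and Rev3l lower (-1.59 ± 0.33 and -0.89 ± 0.21), with adjusted p-values of 0.0451, 0.0478, 0.0219 and 0.0295.

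Markers of dividing cells and of other cell types also differed between stages. Of 17 tested S phase genes 12 were called lower and 0 higher in lactating than in virgin glands, and of 14 mitosis genes 5 and 0. The summed S phase signal was 16022 in the control and 29515 in the mutant pregnant gland, 19496 and 30849.5 in the virgin glands, and 6629 and 8106 in the lactating glands. In the same order of control and mutant, signals summed over 6 T cell markers were 4833 and 5889.6 in the virgin glands and 871 to 1157 in the other 4, and over 5 B cell markers 2637 and 4018 against 556 to 1216. Of 5 macrophage markers 4 were called lower in lactating than in virgin glands, with sums of 3935 to 4608 against 12721 to 15134. Adipocyte markers were called lower in 3 of 5, with sums of 81954 and 76870.1 against 121627 and 133051. Skeletal muscle markers, which should be absent from mammary epithelium, summed to 31375 and 10462 in the virgin glands, 115931 and 125651 in the pregnant glands and 62838 and 61189 in the lactating glands, again control before mutant. As a sign of RNA quality, the ratio of 3' to 5' actin signal was 1.37 and 1.43 in the pregnant, 2.74 and 2.03 in the virgin and 1.91 and 1.58 in the lactating glands, and that of Gapdh was, as given above, highest in the virgin control. The part of RNA quality and of cell makeup in the stage differences of the repair genes was not tested.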

How the data were processed

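Total RNA of 6 whole mammary glands was hybridised as biotin-labelled target to a mouse array, per the labels. The authors deposited linear MAS5 intensities. Their mean after trimming 2% at each end was 500 in all 6 arrays, a sign of scaling before deposit. MAS5 is named in the submitters' processing notes, with its version not given in the sources used here.

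The pseudocount in log2(signal + 52.1) is the 25th percentile over the 6 arrays, and it understates the fold change of dim genes. Of 45101 probe sets, 34945 carried 1 gene symbol, 932 several, 64 were controls and 9160 are unnamed here. The brightest single-symbol probe set stood for each gene, and only genes whose mean log2 value reached 7.72, the median over probe sets, were tested. The model was fitted with limma 3.58.1 under R 4.3.3 (trended eBayes, 2 residual and 5.53 prior degrees of freedom). It compared mutant with control with stage as a block, and the stages with genotype as a term, with Benjamini-Hochberg adjustment over all 11571 genes at 0.05. P-values rest on 2 or 3 arrays per group, and this number limits the precision. As no stage and genotype has a second mouse, the stage p-values and standard errors rest on the same disagreement between pairs. The arrays of a pair share their stage, age and array date per the labels. Across genes, which are not independent replicates, both arrays of a pair deviated together from their genotype means (virgin r = 0.859, pregnant r = 0.587, lactating r = 0.827), so the arrays were treated as paired.

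The genes and lists were chosen with earlier results of these data known. Full values are given for genes called in any comparison, for up to 5 per direction that had the same sign in all 3 pairs, and for those past 2-fold in a pair, as long as the brighter signal was over the limit. For other repair genes some of the named 5 per direction are left out for brevity. Promoters are from RefSeq (GRCm38.p6), and gene positions are from its gene table. The code was tested on simulated data. Trp53 is not analysed here.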

Additional observations from a re-analysis of the deposited data

Results flagged for a closer look

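In 6 genes, at the probe set used, the mutant was higher than the control at 1 stage and lower at another, with a log2 ratio that differed by more than 1 between pairs. Each pair is 1 mutant and 1 control array, and these differences were not tested. The ratio of Rad51ap1 was 1.54 higher in the pregnant than in the lactating pair. Its second probe set above the limit was higher in the mutant in every pair. That of Exo1 was 1.11 higher in the virgin than in the lactating pair, and that of Fancd2 1.05 higher in the virgin than in the pregnant pair. Among genes too dim to be tested, the ratio of Rad54b was 1.74 and that of Rad54l 1.58 higher in the virgin than in the lactating pair, and that of Rad51c 1.43 higher in the virgin than in the pregnant pair. The other probe sets of Rad51c (0.76) and Fancd2 (0.80, 0.54 and 1.06), all under the limit, were higher in the mutant of the pregnant pair, unlike the ones used. Other dim probe sets of Exo1 and Rad54l went both ways.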

How the results depend on the processing

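For mutant against control, 0 of 28 genes were called under every alternative run, with the lowest adjusted p at 0.827, and without the replicate block the median ratio was 0.11 and the lowest adjusted p 0.99998. Over all genes, 2 were called without the lactating pair or either of its arrays. For pregnant against virgin glands, leaving out 1 array gave 0 to 1 gene lower (315 to 2778 genes called over all genes, against 1687) and medians of -0.067 to 0.011. The median was -0.080 with quantile normalization, -0.19 with median centring and -0.13 with a filter at the 75th percentile. For lactating against pregnant glands, the genes higher were 0 with that filter, 0 with the mean of all probe sets and 1 to 5 with 1 array left out, and the genes lower were 10 with median centring and 1 to 5 with 1 array left out. The median was -0.22 with quantile normalization, -0.46 with median centring, -0.41 with the filter and -0.20 to 0.053 with 1 array left out. For lactating against virgin glands, the genes higher were 2 with median centring, 1 with the filter, 3 with the mean of probe sets and 2 to 7 with 1 array left out, and the genes lower were 14 with median centring, 4 with the mean of probe sets and 4 to 5 with 1 array left out. The median was -0.21 with quantile normalization, -0.67 with median centring, -0.19 with no filter, -0.36 with the stricter one, 0.080 with the mean of probe sets and -0.077 to 0.027 with 1 array left out. With the mean of probe sets Trp53bp1 reversed to 0.0137 against pregnant and 0.00508 against virgin glands and Atm to 0.159 against virgin glands. The stricter filter left 12 of the 28 genes and the mean of probe sets 20. For other changes the cause was not tested. The count of genes past 2-fold within a pair went from 1 to 0 with the median as pseudocount and to 0 with the mean of probe sets, and CCAAT on the forward strand alone was in 7 windows. Between lactating and virgin glands Atr and Msh6 kept their call under all 17 alternatives. Rad51b, there and against pregnant glands, and Fancc, there, kept it under the 15 in which they were tested, and the stricter filter and the mean of probe sets left both out. Both genes passed the main limit only through the lactating arrays, so a kept call supports nothing further. Leaving out 1 array left some stages with a single array, assumed to vary like the others. Without detection calls, signals near those of the Y-linked probe sets limit what can be said of dim genes.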
